A study of Arabidopsis thaliana with 12 samples.

Results

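The genes described here are 55 genes of the plastid genome of Arabidopsis thaliana, each read by 1 probe set of the Affymetrix ATH1 array. They were taken from 22746 probe sets (Affymetrix control probe sets left out) by 2 conditions: the platform annotation gives the probe set to a single gene, and that gene lies on the plastid genome and is named psa, psb, pet or ndh with a capital letter, rpo with a letter, or rps or rpl with a number. They are 55 of the 13356 genes that have a probe set to themselves. The rule uses names and positions, not measured values, although the gene families were picked with earlier results of these data known. The 55 genes comprise 5 photosystem I genes (psa), 15 photosystem II genes (psb), 6 genes of the cytochrome b6f complex (pet), 10 genes of the NADH dehydrogenase-like complex (NDH, ndh), 15 genes of ribosomal proteins (rps and rpl) and 4 genes of RNA polymerase (rpo). Below, the psa and psb genes together (20 genes) are called the photosystem genes, and the ribosomal and polymerase genes together (19 genes) the expression machinery. Another 6 probe sets, for rps12, rpl2, rpl23, ndhB and rps7, were left out because the annotation gives them to several genes. Positions along the plastid genome come from the RefSeq annotation (TAIR10.1).

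RNA came from Col-0 suspension cells, a liquid culture of dispersed cells, that were induced to become tracheary elements, the water-conducting cells of the xylem. Day 0 is the untreated culture, for which the labels list MS salts, 3% sucrose and 1 µg/ml of the auxin 2,4-D. For days 2, 4, 6, 8 and 10, 7.5 ml of cells subcultured for 7 days were moved into 42.5 ml of new medium. That medium held 1 µM brassinolide (a plant steroid hormone) and 10 mM boric acid and is listed with 3% sucrose. The labels list 2,4-D only for maintaining the culture, at 1 µg/ml for every day. Each day has 2 arrays, numbered replicate 1 and replicate 2, so there are 12 arrays in all. The labels put the temperature at 22 °C on days 0, 4 and 8 but at 27 °C on days 2, 6 and 10. There is no culture moved without the hormone and boric acid, so time, transfer and treatment cannot be told apart. For days 2, 6 and 10 against day 0 the labelled temperature differs as well and cannot be told apart from them. The light given to the cultures is not stated in the sources used here. The labels do not say whether the 2 replicates of a day were separate cultures, so the p-values measure only the spread between these arrays.

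Signals are the authors' MAS5 intensities on a linear scale, scaled so that the trimmed mean of each array was 100.01; array medians ran from 33.2 to 40.7. A signal below the 40th percentile of its array (17.2 to 22.1) is called dim here and gives only a bound; between 0 and 5 of the 55 genes were dim on any one array. All 55 genes were among the 15103 probe sets tested, those with both arrays of at least 1 day at or above that percentile. Of 11 listed markers of tracheary elements, 6 were tested, and 2 of them on day 2 and all 6 on days 4, 6, 8 and 10 were higher than on day 0. Of all tested probe sets, 35.3% were higher on day 2, near the share of the markers, and 34.5% to 36.4% on the other days. Among the 6 markers, the aspartic protease gene AT4G04460 had a mean signal of 12.2 on day 0, where both arrays were dim, and of 1200 on day 4. In these bulk samples a change in the share of cells of a type and a change in RNA per cell cannot be told apart, and neither can the number of plastid genomes per cell.

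Plastids keep a small genome that encodes core subunits of both photosystems, of cytochrome b6f and of NDH, together with part of the machinery that expresses them. Its genes are read by a bacterial-type RNA polymerase, whose core subunits are the rpo products, and by phage-type polymerases encoded in the nucleus. Photosystem genes depend largely on the former, while the rpo genes themselves are read mainly by the latter. Many plastid genes are transcribed together as long units that are then cut into smaller RNAs, so neighbouring genes often share a transcript. Most plastid messengers carry no long poly(A) tail. The sources used here do not name the primer that labelled the RNA, so how far the signals follow the amount of each messenger was not tested.

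The 2 replicates differed in these genes in the same way on every day. The log2 difference of replicate 2 from replicate 1, gene by gene, correlated between days with Pearson's r from 0.605 to 0.843 over the 55 genes in the 15 pairs of days. Over all 15103 tested probe sets the same r ran from -0.0671 to 0.128. The 55 genes share the arrays, and each day's difference uses 2 arrays that no other day uses. Of the 55 genes, 23 (41.8%) were lower in replicate 2 on all 6 days, against 3.43% of all tested probe sets. Another 5 (9.09%) were higher on all 6 days, against 2.89%. The median difference lay between -0.12 and -0.47 by day, while that of all tested probe sets was within 0.02 of 0. ndhG had the lowest mean difference, with -0.995 on day 0 and -1.93 on day 10. Its replicate 2 was dim on days 2, 4 and 6, so no average fold is given. rpoB (-0.95 to -1.72), petN (-0.64 to -1.71 on the days without a dim array) and rps14 (-0.68 to -1.91) were similar. rps4 (0.24 to 0.99) and psaB (0.47 to 0.94) went the other way. The 23 genes had dimmer signals, with a median over genes of the mean signal of 99.9 against 243 for the other 32. The cause of the difference was not tested.

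**Figure D1:**
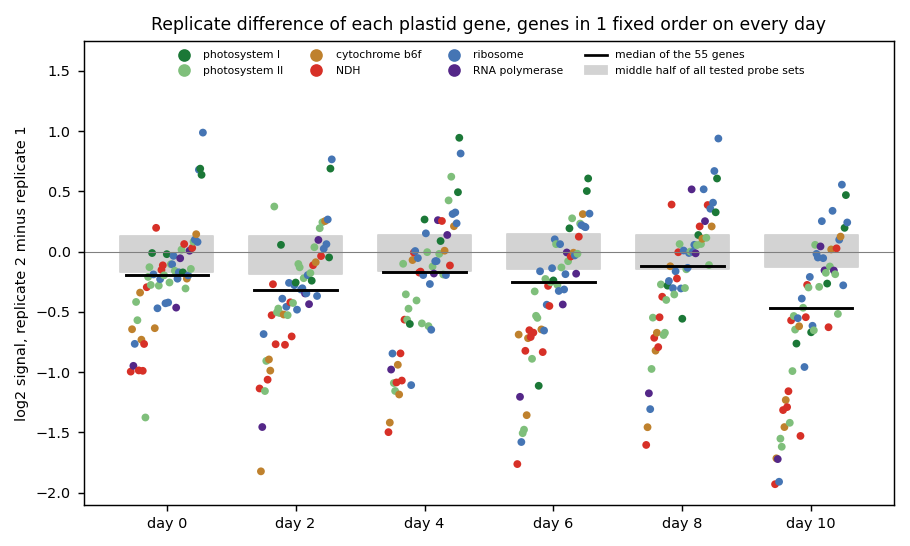
Log2 signal of replicate 2 minus replicate 1 (vertical axis) on each day (horizontal axis) for the 55 genes, coloured by group and drawn in the same left to right order on every day; black bars are medians of the 55 genes and grey bands the interquartile range of all tested probe sets. ndhG, petN, rpoB and rps14 are below -0.6 on all 6 days, outside the grey bands.

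On day 2, 10 of the 19 expression machinery genes were higher than on day 0 and 1 was lower, whereas 2 of the 20 photosystem genes were higher and 7 were lower. By day 8, 44 of the 55 genes had signals above day 0 within both replicates (80%, against 48.2% of all tested probe sets), NDH and photosystem genes among them. Over all 55 genes, 13 were higher and 12 lower on day 2, beside 35.3% higher and 26.1% lower among all tested probe sets. On day 4, 16 were higher and 5 lower (background 35.8% and 25.8%), and on day 6, 18 were higher and 5 lower (34.5% and 28%). On day 8, 27 were higher and 6 lower (36.2% and 27.3%), and on day 10, 25 were higher and 6 lower (36.4% and 27.6%). The share of the 55 genes called in these comparisons was thus near or below the background share, except for the higher calls on days 8 and 10. With arrays centred on their medians those calls were 20 and 19, or 36.4% and 34.5% of the 55 genes, against 26.5% and 27.4% of all tested probe sets under the same centring. Calls come from limma on log2 signals with Benjamini-Hochberg adjustment over all tested probe sets, at an adjusted p under 0.05. The 5 comparisons share the day 0 arrays. The day 2 calls of psbC and rpl16 were lost with quantile normalization, centring, no filter or no variance trend (limma adjusted p = 0.0541 to 0.0879). Those of rpl36 and rps4 were lost without the variance trend (limma adjusted p = 0.0601 and 0.0608). Leaving out day 0 replicate 1 took the day 2 log2 change of rps2 from 0.85 to 0.51. Leaving out day 0 replicate 2 took that of rpl36 from 0.44 to 0.23. By limma's moderated F test over the 5 comparisons, 40 of the 55 genes changed on some day, or 72.7%, against 80.8% of all tested probe sets.

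The median log2 change of the 55 genes from day 0 was -0.21 on day 2, 0.06 on day 4, 0.19 on day 6, 0.78 on day 8 and 0.88 at day 10. Over all tested probe sets the same median stayed between 0.05 and 0.10. Group medians on day 2 were -0.76 for photosystem II, -0.65 for cytochrome b6f, -0.55 for NDH and -0.35 for photosystem I, but 0.32 for the ribosomal genes and 0.60 for the polymerase genes. By day 10 all 6 medians were positive: 0.45 for cytochrome b6f, 0.49 for photosystem II, 0.86 for the ribosomal genes, 0.88 for photosystem I, 0.96 for NDH and 1.24 for the polymerase genes. Quantile normalization or centring the arrays on their medians turned the sign of a group median only on day 6, for photosystem II (0.01 as deposited, -0.07 and -0.16) and, with centring, for NDH (0.12 as deposited, -0.05).

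**Figure D2:**
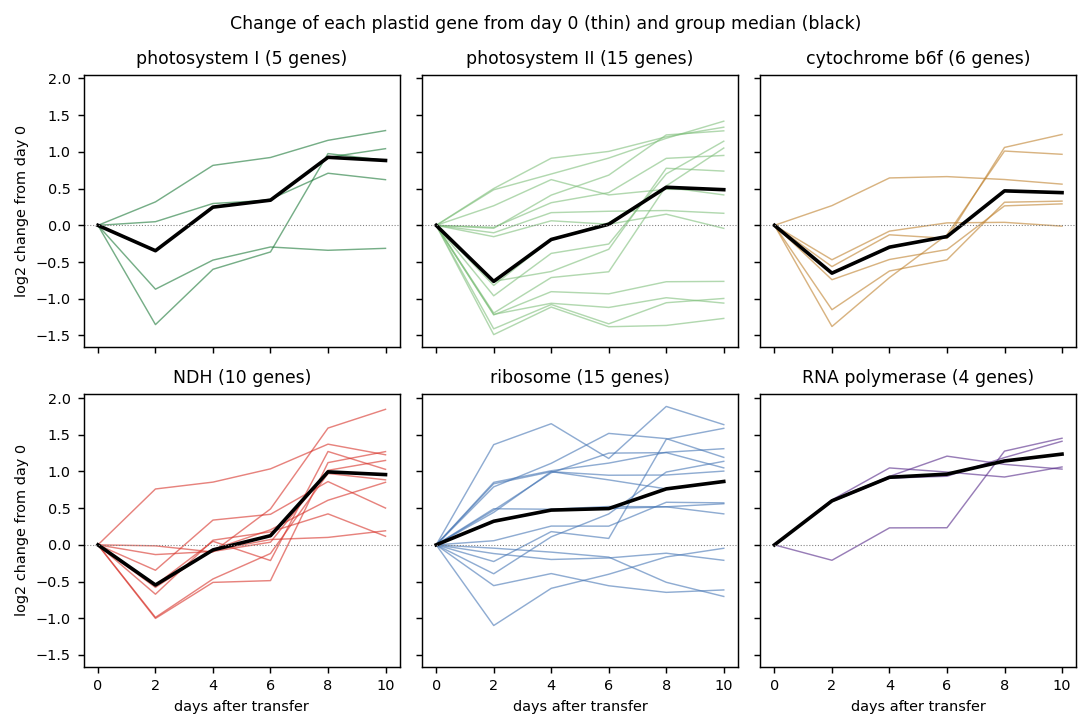
Log2 change from day 0 (vertical axis) by days after transfer (horizontal axis) for each plastid gene (thin lines, mean of 2 arrays a day) and the group median (black). The medians of photosystem I, photosystem II, cytochrome b6f and NDH lie below 0 on day 2 and above 0 on days 8 and 10, while those of the ribosomal and RNA polymerase genes are above 0 on each later day.

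Within each array, the mean log2 signal of the photosystem genes minus that of the expression machinery does not depend on a scaling factor common to the array. From day 0 to day 2 this difference changed by -0.81 in replicate 1 and -0.73 in replicate 2. It was still -0.61 and -0.65 from its day 0 value on day 6, and -0.24 and -0.47 on day 10. The late part of this shift rests on psbE, psbF, psbL and psbJ, 4 neighbouring photosystem II genes. For the other 16 photosystem genes, a comparison chosen after seeing the data, the change was -0.62 and -0.51 for day 2, -0.33 and -0.37 for day 6, 0.02 and -0.15 for day 8, and 0.14 and -0.13 for day 10. NDH genes fell behind the expression machinery by a like amount on day 2, with changes of -0.63 and -0.69, but caught up: the change was 0.20 and 0.12 at day 8, and 0.32 and -0.06 on day 10. The direction for NDH rests on few arrays: the mean change was -0.0033 on day 8 without day 8 replicate 1 and -0.18 on day 10 without day 10 replicate 1. Within the expression machinery, the polymerase genes gained on the ribosomal genes, by 0.22 and 0.16 at day 2 and by 0.58 and 0.59 at day 10. These differences are descriptions with no test.

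**Figure D3:**
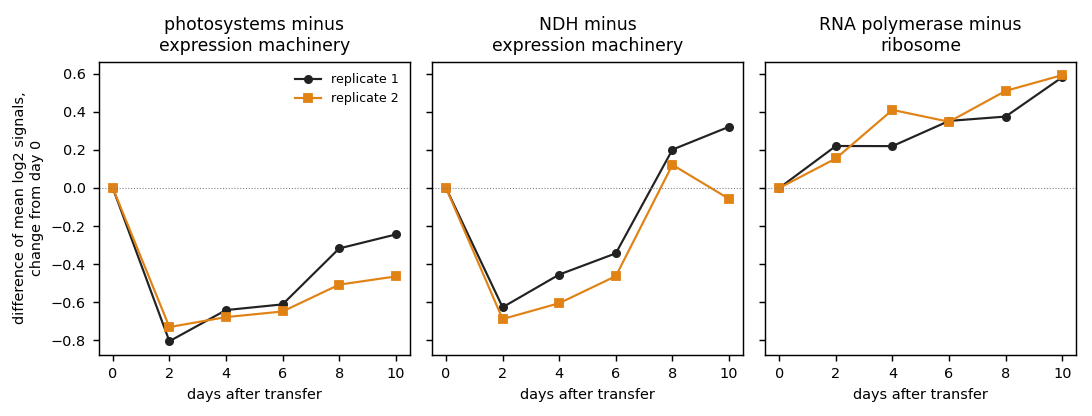
Change from day 0 in the within-array difference between group means of log2 signal (vertical axis) by days after transfer (horizontal axis), with 1 line for each replicate. The left and middle panels drop to between -0.63 and -0.81 on day 2, and the NDH panel is above 0 on day 8 in both replicates. The photosystem panel, which includes psbE, psbF, psbL and psbJ, stays below 0, while without those 4 genes its mean change on day 10 is 0.0055.

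The RNA polymerase genes encode the core of the bacterial-type plastid polymerase. rpoA, for the alpha subunit, had signals of 213 and 206 at day 0, 372 and 275 at day 2, 396 and 474 at day 4, 418 and 416 at day 6, 399 and 396 at day 8, and 461 and 414 at day 10. Every later array lay above both day 0 arrays, and the level changed little after day 4. The rise was 1.53-fold on day 2 (log2 change 0.61 ± 0.13, SE, n = 2 arrays a day, limma adjusted p = 0.0016) and 2.09-fold on day 10 (adjusted p = 2.4e-05). rpoC2, for the beta'' subunit, had signals of 61.7 and 62.1 at day 0, 90.1 and 96.3 at day 2, 111 and 122 at day 4, 126 and 111 at day 6, 129 and 154 at day 8, and 174 and 156 at day 10. Its arrays did not overlap between day 0 and any later day, and the change reached 2.66-fold on day 10 (adjusted p = 1.1e-06). rpoC1, for the beta' subunit, rose 1.53-fold on day 2 and 2.04-fold on day 10 (adjusted p = 0.022 and 9.0e-04). Its day 2 call was lost without day 0 replicate 2 or day 2 replicate 1 (adjusted p = 0.176 and 0.154).

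rpoB, for the beta subunit, was the polymerase gene that passed the test on no day. Its signals were 58.1 and 30.1 at day 0, 59.9 and 21.8 at day 2, 68.9 and 35.0 at day 4, 74.6 and 32.4 at day 6, 152 and 67.4 at day 8, and 208 and 63.0 at day 10. Replicate 2 was below replicate 1 on every day, and the rise on days 8 and 10 was present within each replicate. The mean change was 2.74-fold on day 10 (log2 change 1.45 ± 0.67, adjusted p = 0.078). rpoB, rpoC1 and rpoC2 are neighbours in the plastid genome, and in plants they are read as 1 unit. Among nuclear partners listed, 1 of 3 phage-type organelle polymerase genes was tested: AT5G15700, whose product serves mitochondria and plastids, had mean signals of 28.3 on day 0, 92.4 on day 2, 60.3 on day 4 and 107 at day 10. It was higher on each later day, by a log2 change of 1.80 on day 2 and 2.00 at day 10 (adjusted p = 1.3e-04 and 5.0e-05), with 1 array dim. None of the 6 listed sigma factor genes and none of the 12 polymerase-associated protein genes had a probe set given to it alone.

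Of the 15 ribosomal protein genes, 7 were higher and 1 was lower on day 2, or 46.7% and 6.67%, beside 35.3% and 26.1% of all tested probe sets. The other 7 were not called, and 6 of the 15 changes were negative. On day 10, 9 were higher and 1 lower (60% and 6.67%, beside 36.4% and 27.6%). The genes rpl14, rpl16, rps3, rpl22 and rps19 lie next to each other, and all 5 were higher on days 4, 6, 8 and 10. rpl22, for a protein of the large subunit, had signals of 603 and 561 at day 0, 1155 and 928 at day 2, 1273 and 1057 at day 4, 1256 and 1002 at day 6, 1178 and 1073 at day 8, and 1174 and 1159 at day 10. Day 0 stood below all later arrays, and the later days differed little from each other. The rise was 1.78-fold on day 2 (log2 change 0.83 ± 0.13, adjusted p = 1.9e-04) and 2.01-fold on day 10. rpl14 had signals of 103 and 89.6 at day 0, 188 and 146 at day 2, 222 and 194 at day 4, 278 and 272 at day 6, 219 and 313 at day 8, and 195 and 246 at day 10. No later array overlapped day 0. It was 1.73-fold higher on day 2 (adjusted p = 0.0025) and 2.73-fold higher on day 8 (adjusted p = 2.6e-05).

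rps3, for a small subunit protein, made a smaller and steady step, from 795 and 706 at day 0 to 1127 and 985 at day 2 and 1126 and 1084 at day 10 (1.41-fold and 1.47-fold, adjusted p = 7.2e-04 and 2.6e-04). rpl16 was 2.07-fold higher on day 10 (adjusted p = 3.6e-04); its day 2 call, at 1.39-fold, was lost without either array of day 0 or day 2 (adjusted p = 0.0782 to 0.135). rps19 was 1.34-fold higher on day 10, a call lost without day 0 replicate 2 or day 10 replicate 2 (adjusted p = 0.125 and 0.147), and its calls on days 4, 6 and 8 were lost without day 0 replicate 2 too (adjusted p = 0.0816, 0.0663 and 0.0523). Without day 4 replicate 1 or day 6 replicate 1 the calls of those days were also lost (adjusted p = 0.0578 and 0.0873). rpl36, near this cluster, was 1.82-fold higher on day 10 (adjusted p = 4.9e-04).

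Elsewhere on the genome, rps16 showed one of the larger rises. Its signals were 34.2 and 25.5 at day 0, 89.8 and 64.4 at day 2, 87.9 and 97.7 at day 4, 64.4 and 69.1 at day 6, 109 and 109 at day 8, and 114 and 74.2 at day 10. All later arrays lay above both day 0 arrays. The change was 2.58-fold on day 2 (log2 change 1.37 ± 0.22, adjusted p = 2.1e-04) and 3.69-fold on day 8 (adjusted p = 1.5e-05). rps2, at the head of the rpoB, rpoC1 and rpoC2 neighbourhood, was 2.48-fold higher on day 10 (adjusted p = 4.9e-04). rpl20 moved late, from 83.0 and 70.9 at day 0 and 63.9 and 53.4 at day 2 to 235 and 121 at day 10 (2.20-fold, adjusted p = 0.0021).

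Other ribosomal genes went the other way or did not pass the test. rps4, for the small subunit protein that binds early in assembly, had signals of 190.3 and 377 at day 0, 96.0 and 163 at day 2, 134 and 236 at day 4, 182 and 226 at day 6, 173 and 331 at day 8, and 239 and 282 at day 10. Replicate 2 was above replicate 1 on every day, and day 2 was the lowest day in both replicates. It was 2.14-fold lower on day 2 (log2 change -1.10 ± 0.39, adjusted p = 0.028), a call lost without day 0 replicate 2 or day 2 replicate 1 (adjusted p = 0.235 and 0.206). rps18 was lower late, going from 136 and 133 at day 0 to 95.1 and 94.4 at day 8 and 84.3 and 81.5 at day 10. It was 1.63-fold lower on day 10 (adjusted p = 0.0042), and its day 8 call was lost without any 1 of the 4 arrays of days 0 and 8 (adjusted p = 0.062 to 0.0791). rpl32, with signals of 386 and 413 at day 0 and 333 and 357 at day 10, differed least by test over all days (adjusted p = 0.64 by the moderated F test). rps14, rps15 and rpl33 passed the test on no day either.

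Of 31 nuclear genes listed for plastid ribosomal proteins, 8 had a probe set given to them alone, and all 8 were tested. On day 10, 1 was higher and 4 were lower, beside 36.4% higher and 27.6% lower among all tested probe sets. The gene that was higher was AT5G24490, with mean signals of 45.0 on day 0, 22.5 on day 2, 237 on day 4 and 144 at day 10 (log2 change 1.86 ± 0.34, adjusted p = 5.4e-04). The 4 that were lower (AT5G65220, AT1G64510, AT4G01310 and AT1G29070) changed by between -0.37 and -0.67 on the log2 scale.

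psbE, psbF, psbL, psbJ and psaJ, a photosystem I gene near them, passed the test as lower than day 0 on all 5 later days, and no other gene of the 55 did. Of all tested probe sets, 25.8% to 28% were lower on any 1 of those days, and the share lower on all 5 was not counted. Changes of rps18, rpl33, rpl32 and rps4 were negative on all 5 days too, without passing on each. psbE, psbF, psbL and psbJ lie side by side and are known as 1 transcription unit. psbE and psbF encode the subunits of cytochrome b559, and psbL and psbJ small subunits of photosystem II. psbE had signals of 741 and 689.6 at day 0, 267 and 244 at day 2, 409.5 and 267 at day 4, 302 and 249 at day 6, 292 and 264 at day 8, and 291 and 303 at day 10. No later array came near the day 0 arrays, and no return was seen by day 10. It was 2.81-fold lower on day 2 (log2 change -1.49 ± 0.16, adjusted p = 1.2e-05) and 2.41-fold lower on day 10 (adjusted p = 3.9e-05).

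psbF had signals of 1168 and 1069 at day 0, 495 and 357 at day 2, 644 and 435 at day 4, 530.1 and 367 at day 6, 679 and 426 at day 8, and 674 and 466 at day 10. Replicate 2 was below replicate 1 on every day, yet both replicates stayed well under day 0. It was 2.66-fold lower on day 2 (adjusted p = 8.6e-04) and 1.99-fold lower on day 10 (adjusted p = 0.0073), the latter lost without day 10 replicate 2 (adjusted p = 0.077). Its calls on days 4 and 8 were lost without replicate 2 of that day (adjusted p = 0.0559 and 0.0632). psbJ was 2.32-fold lower on day 2 and 2.08-fold lower on day 10 (adjusted p = 2.0e-04 and 5.0e-04). psbL was 2.33-fold lower on day 2 (adjusted p = 4.7e-04) and 1.70-fold lower on day 10 (adjusted p = 0.0090), the latter lost without day 0 replicate 1 or day 10 replicate 2 (adjusted p = 0.0625 and 0.0948), and its day 8 call was lost without day 0 replicate 1 or day 8 replicate 2 (adjusted p = 0.0616 and 0.0778). psaJ fell from 416 and 369 at day 0 to 233 and 197 at day 2 (1.83-fold lower, adjusted p = 6.6e-05). On day 10 it stood at 345 and 287, 1.24-fold lower, and that call was lost without day 0 replicate 1 or day 10 replicate 2 (adjusted p = 0.202 and 0.281). Its day 8 call was lost without day 0 replicate 1 or day 8 replicate 1 (adjusted p = 0.157 and 0.147). Its day 6 call was lost without any 1 of 6 arrays: day 0 replicate 1, day 6 replicate 1, or either array of day 4 or day 8 (adjusted p = 0.055 to 0.271), and also with the replicate number as a block (adjusted p = 0.0525).

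Counts of lower genes on the later days rest largely on this neighbourhood: the 6 lower genes on day 8 and on day 10 are psbE, psbF, psbL, psbJ, psaJ and rps18. They are 10.9% of the 55 genes, below the 27.3% and 27.6% of all tested probe sets that were lower on those days. The day 8 count became 3 without day 0 replicate 1 or day 8 replicate 2, and the day 10 count became 3 without day 10 replicate 2.

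The reaction centre genes behaved otherwise. psbA, which encodes the D1 protein of photosystem II, had signals of 74.5 and 78.9 at day 0, 68.5 and 81.2 at day 2, 82.2 and 126 at day 4, 114 and 133 at day 6, 187 and 173 at day 8, and 224 and 156 at day 10. The day 2 arrays overlapped day 0, and the arrays of days 4 to 10 all lay above it. It was 2.35-fold higher on day 8 and 2.44-fold higher on day 10 (log2 change 1.29 ± 0.21, adjusted p = 2.0e-04). psbC, for the antenna protein CP43, rose from 67.9 and 56.8 at day 0 to 101 and 101 at day 4 and 208 and 132 at day 10 (2.67-fold, adjusted p = 4.1e-05). Its neighbour psbZ, for a small subunit, was 1.88-fold higher on day 4 and 2.53-fold higher on day 10 (adjusted p = 1.2e-04 and 5.2e-06). psbD, for the D2 protein, was 1.93-fold higher on day 10 (adjusted p = 0.019), a call lost without day 0 replicate 2 or day 10 replicate 1 (adjusted p = 0.0823 and 0.222). psbK and psbI, for small subunits, held signals between 354 and 507 and passed the test on no day.

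The genes psbB (antenna protein CP47), psbT, psbN, psbH, petB (cytochrome b6) and petD (subunit IV of cytochrome b6f) lie in a row, and all 6 had lower mean log2 signals on day 2 than on day 0. Of these, psbH (1.76-fold lower, adjusted p = 0.020) and petB passed the test there, psbH not without day 0 replicate 1 or day 2 replicate 2 (adjusted p = 0.103 and 0.156). petB had signals of 647 and 554 at day 0, 446 and 419.9 at day 2, 566 and 569 at day 4, and between 591 and 639.6 on the later days. Day 2 lay below all other arrays, and day 4 onward was close to day 0. The dip was 1.38-fold (log2 change -0.47 ± 0.08, adjusted p = 4.3e-04). psbB had signals of 153 and 115 at day 0, 102 and 45.7 at day 2, 149 and 69.8 at day 4, 188 and 66.0 at day 6, 302 and 154 at day 8, and 503 and 172 at day 10. Within each replicate day 2 was lowest and day 10 highest, and both day 10 arrays lay above both day 0 arrays. The mean change on day 10 was 2.21-fold with an adjusted p of 0.12, and petD was alike, at 2.36-fold with an adjusted p of 0.069. None of the 6 passed the test on day 8 or day 10. psbN was dim on 8 of 12 arrays and gets no fold here.

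In photosystem I, psaA and psaB encode the reaction centre pair. psaA had signals of 51.8 and 51.1 at day 0, 58.2 and 48.7 at day 2, 57.6 and 69.4 at day 4, 70.9 and 60.1 at day 6, 119 and 80.6 at day 8, and 134 and 84.1 at day 10. The arrays of days 8 and 10 lay above all earlier ones. It was 2.06-fold higher on day 10 (log2 change 1.04 ± 0.23, adjusted p = 0.0020). psaB had signals of 125 and 194 at day 0, 153 and 247 at day 2, 198 and 381 at day 4, 239.8 and 365 at day 6, 282 and 429 at day 8, and 324 and 449 at day 10. It rose step by step within replicate 1 and, up to a small fall on day 6, within replicate 2, which was the higher of the pair on every day. It was 2.45-fold higher on day 10 (adjusted p = 0.0077), a call lost without day 0 replicate 1 or day 10 replicate 2 (adjusted p = 0.0633 and 0.065). psaI, a small subunit, was 1.54-fold higher on day 10 (adjusted p = 0.036), lost without day 0 replicate 1 or either day 10 array (adjusted p = 0.0633 to 0.327).

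psaC, for the iron-sulfur subunit of photosystem I, lies among the ndh genes. Its signals were 55.3 and 54.9 at day 0, 21.2 and 22.0 at day 2, 44.8 and 29.6 at day 4, 63.0 and 29.1 at day 6, 120 and 98.4 at day 8, and 132 and 78.0 at day 10. Day 2 was the lowest and days 8 and 10 were above every earlier array. It was 2.55-fold lower on day 2 (log2 change -1.35 ± 0.34, adjusted p = 0.0047) and 1.97-fold higher on day 8 (adjusted p = 0.025). With quantile normalization or arrays centred on their medians the day 8 rise was not called (limma adjusted p = 0.0616 and 0.0732). The day 8 call was lost without either day 0 array or day 8 replicate 1 (adjusted p = 0.0693 to 0.126).

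The NDH complex carries electrons from ferredoxin back to plastoquinone. Of its 10 genes, 1 was higher and 2 were lower on day 2, and 5 and 3 were higher on days 8 and 10, with none lower. The shares higher were 10%, 50% and 30%, beside 35.3%, 36.2% and 36.4% of all tested probe sets. Without day 8 replicate 2 the day 8 calls of ndhD and ndhF were lost (adjusted p = 0.0655 and 0.145). ndhC stood apart by rising early: its signals were 124 and 127 at day 0, 215 and 209.6 at day 2, 236 and 218 at day 4, 246 and 268 at day 6, 283 and 371 at day 8, and 290.4 and 296 at day 10. No later array overlapped day 0. It was 1.70-fold higher on day 2 and 2.34-fold higher on day 10 (log2 change 1.23 ± 0.11, adjusted p = 2.4e-06). ndhD, in the ndhD to ndhH row, had signals of 142 and 148 at day 0, 101 and 93.5 at day 2, 127 and 152 at day 4, 169.8 and 165 at day 6, 206 and 238 at day 8, and 326 and 211 at day 10. Both day 2 arrays lay below day 0 and all arrays from day 6 on lay above it. It was 1.49-fold lower on day 2 (adjusted p = 0.011, or 0.0626 without day 2 replicate 2) and 1.81-fold higher on day 10 (adjusted p = 9.9e-04).

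ndhJ was near the dim limit at first, at 26.5 and 13.4 at day 0, and reached 72.8 and 44.4 at day 8 and 107 and 43.0 at day 10. With 1 of its day 0 arrays dim, it was at least 2.66-fold higher on day 8 and at least 3.18-fold higher on day 10 (adjusted p = 0.025 and 0.012). The day 10 call was lost without day 0 replicate 2 or day 10 replicate 1 (adjusted p = 0.0901 and 0.128), and the day 8 call without day 0 replicate 2 or day 8 replicate 1 (adjusted p = 0.164 and 0.151). ndhF, dim on both day 0 arrays, was at least 2.08-fold higher on day 8 (adjusted p = 0.030), and that call was lost without any 1 of the 4 arrays of the 2 days (adjusted p = 0.055 to 0.145). ndhG, neighbour of ndhE and ndhI, had signals of 61.4 and 30.8 at day 0, 32.2 and 14.7 at day 2, 165 and 54.2 at day 8, and 205 and 53.7 at day 10. Replicate 2 was far below replicate 1 throughout, and no comparison with day 0 passed (adjusted p = 0.18 on day 10). Of 11 nuclear NDH genes listed, 1 was tested, NdhS, and it was dim on 10 of 12 arrays.

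Of the 6 cytochrome b6f genes, 2 (petB and petL) were lower on day 2 and petA alone was higher on later days. The share lower on day 2 was 33.3%, beside 26.1% of all tested probe sets. The share higher was 16.7% on days 8 and 10, beside 36.2% and 36.4%. petA, for cytochrome f, had signals of 199 and 220.3 at day 0, 231 and 276 at day 2, 305 and 353 at day 4, 298 and 369.7 at day 6, 300.3 and 347 at day 8, and 296 and 323 at day 10. All later arrays exceeded day 0, and the level was flat from day 4. It was 1.56-fold higher on day 4 (log2 change 0.65 ± 0.13, adjusted p = 0.0012). petL, a small subunit, was 1.67-fold lower on day 2 (adjusted p = 0.035), a call lost without day 0 replicate 1 or day 2 replicate 2 (adjusted p = 0.257 and 0.233). petG and petN, also small subunits, had lower means on day 2 that did not pass the test (adjusted p = 0.066 and 0.12).

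**Figure D4:**
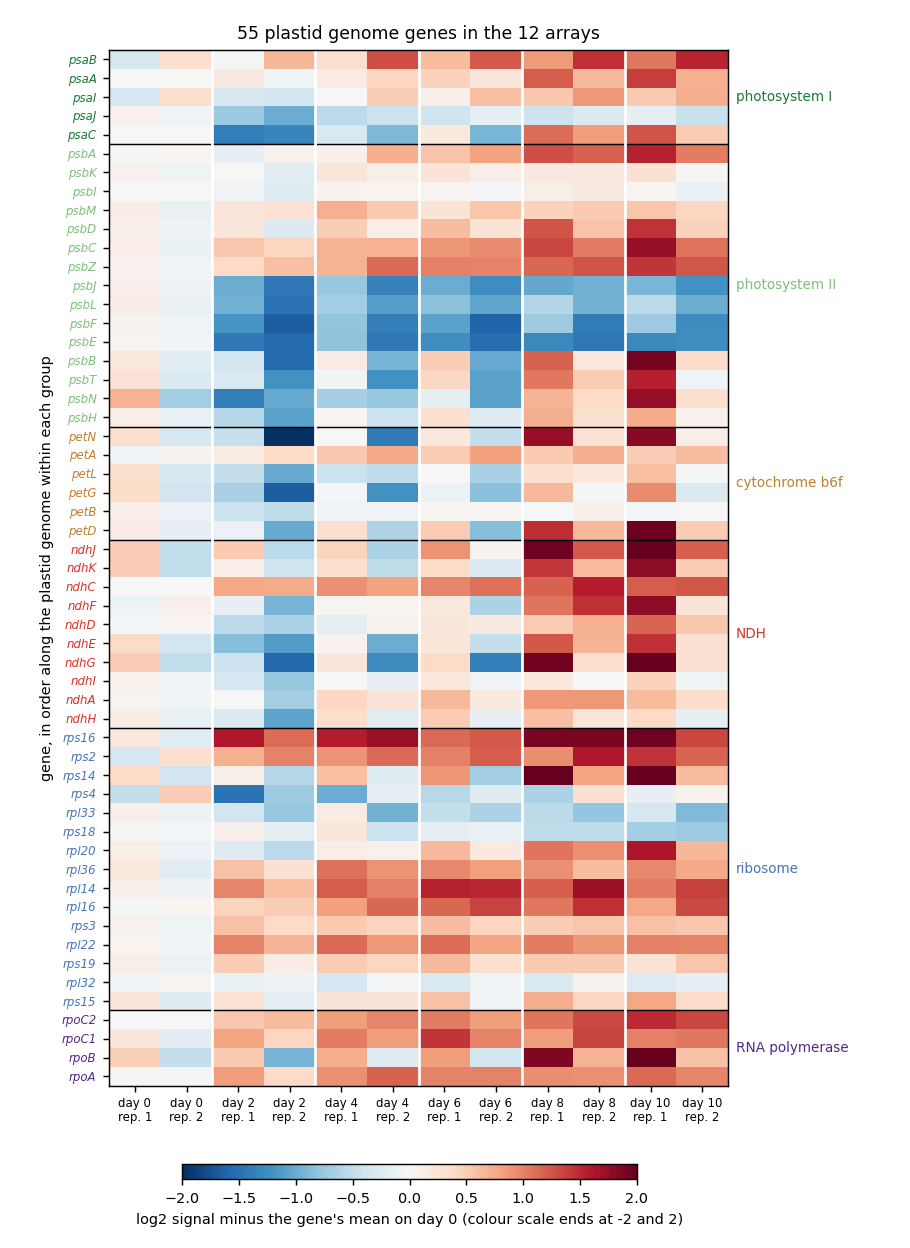
Log2 signal of each of the 55 genes on each of the 12 arrays, as the difference from the gene's own mean on day 0 (blue lower, red higher). Rows are genes in genome order within each group and columns are arrays by day and replicate; the block of blue rows on every later day is psbJ, psbL, psbF and psbE, and rpl14, rpl16, rps3, rpl22, rps16, rps2, rpoA and rpoC2 are red on every later day.

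The comparisons between later days show when the genes moved. From day 2 to day 4, 11 of the 55 genes rose and none fell, against 22.3% higher and 22.5% lower among all tested probe sets. That count was 3 without day 2 replicate 2 and 6 without day 4 replicate 2. Both replicates moved up in 46 genes and down in 1 (83.6% and 1.82%, against 41.4% and 41.1% of all tested probe sets). From day 4 to day 6 none was called, where 15.6% of all tested probe sets changed. From day 6 to day 8 only psaC rose, at 2.53-fold (adjusted p = 0.044), with 5.59% of all tested probe sets called. That call was not made without either day 2 array, day 6 replicate 2 or day 8 replicate 2, and 2 genes were called without either day 10 array. From day 8 to day 10 none was called, with 0.0728% of all tested probe sets called.

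Each of those steps crosses a change in the labelled temperature, so pairs of days at 1 temperature were compared as well. From day 2 to day 6, both at 27 °C, 20 genes rose and none fell (background 25.6% higher and 27.7% lower). Within both replicates, 49 genes had higher signals and none had lower ones. Those shares were 89.1% and 0% of the 55 genes, against 41.5% and 44.1% of all tested probe sets. The count of called genes was 7 without day 2 replicate 2 and 9 without day 6 replicate 1. From day 6 to day 10, also at 27 °C, 4 were called higher (psbN, ndhD, psaC and rpoC2) and none lower, beside 10.7% higher and 8.59% lower. For psbN, 3 of the 4 arrays behind this call were dim. None of these calls remained without day 6 replicate 2 or day 10 replicate 1, 2 were made without day 6 replicate 1, and 10 without day 10 replicate 2. From day 4 to day 8, both at 22 °C, 7 rose and none fell, beside 12.2% higher and 10.8% lower, with 2 to 4 calls when day 4 replicate 1 or either day 8 array was left out. No gene of the 55 had its highest mean on day 2, although 24% of all tested probe sets did. Day 2 was the lowest day for 32 of the 55 genes (58.2%), against 20.3% of all tested probe sets. Day 8 or 10 was the highest for 41. By day these were 30.9% and 43.6% of the 55 genes, against 6.98% and 15.3% of all tested probe sets. Day 2 was lowest in 15 of 20 photosystem, 8 of 10 NDH and 5 of 6 cytochrome b6f genes. Of the 19 expression machinery genes, 4 were lowest on day 2 and 12 on day 0 (63.2%, against 36.7% of all tested probe sets).

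Neighbouring genes had closer values than other pairs. Among the 55 genes, 44 pairs are neighbours with no other protein-coding gene of the RefSeq table between them. On day 2 the median gap between the log2 changes of neighbours was 0.36, against 0.73 for the other 1441 pairs, and 75% of neighbouring pairs changed in the same direction, against 53.3% of the others. On day 10 the gaps were 0.40 and 0.67 and the shares 79.5% and 67%. Neighbours share arrays and often function, so these values are descriptions, given without a test. The row from rps2 through rpoC2, rpoC1, rpoB, petN, psbM, psbD, psbC, psbZ, rps14, psaB and psaA had 12 of 12 positive log2 changes on day 10, of which 9 passed. In the row from petA to rpl20, 4 of 11 were positive, with 2 higher and 6 lower calls. Among all tested probe sets, 8136 of 15103 changes were positive on day 10, with 36.4% called higher and 27.6% lower. Neighbours could still differ: within the first row on day 2 the log2 change of rps2 was 0.85. petN, dim on 1 of its day 2 arrays, was at least 1.87-fold lower there, without passing the test.

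**Figure D5:**
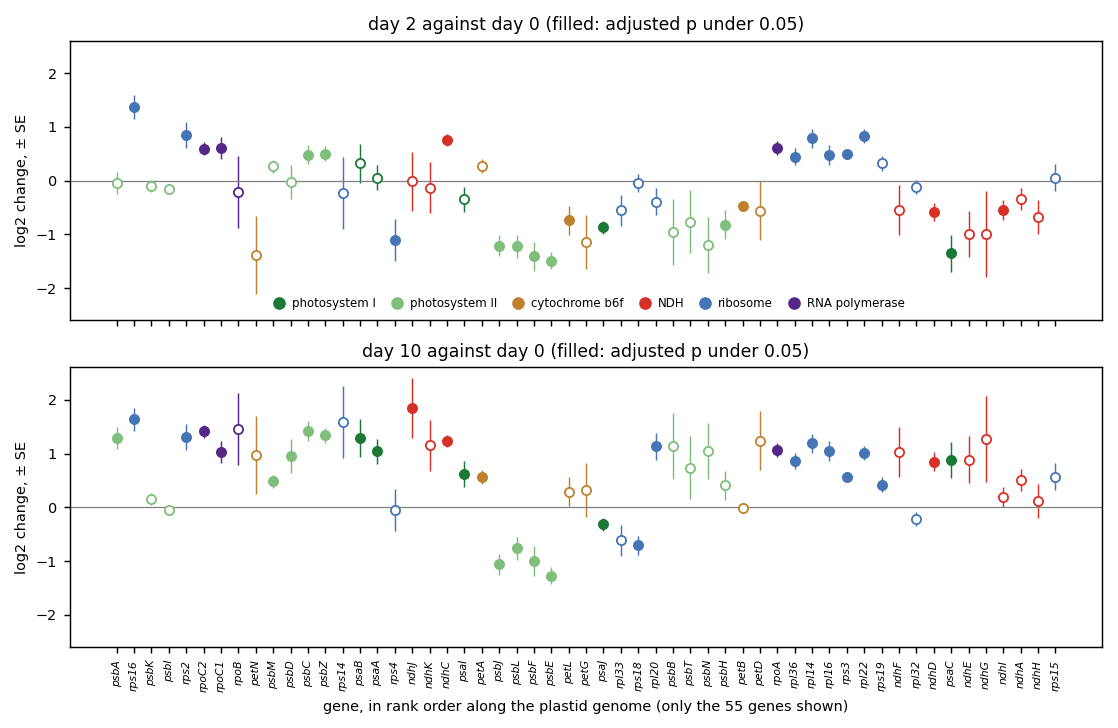
Log2 change (vertical axis, error bars ± SE, n = 2 arrays a day) of the 55 genes in rank order along the plastid genome (horizontal axis), on day 2 (top) and day 10 (bottom) against day 0, coloured by group; filled points passed limma at an adjusted p under 0.05. The run psbJ, psbL, psbF and psbE is low in both panels, while the rows around psbB to petD and ndhD to ndhH are low on day 2 and at or above 0 on day 10.

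The replicate difference adds to the spread in a fit without it. The median SE of a log2 change was 0.22 for the 55 genes and 0.15 for all tested probe sets. Of the 23 genes lower in replicate 2 on every day, 5 were called higher on day 10, against 20 of the other 32. The median log2 change of the 23 genes was 0.89 and that of the others 0.87, with median SEs of 0.32 and 0.18. The 23 genes were picked by the replicate difference itself and were also dimmer. Why fewer of them passed was not tested. With the replicate number as a block in the fit, 40 genes were higher on day 8 and 37 at day 10 (background 36.8% and 37.2%). On day 2, 21 were lower (26.7%), and on day 4, 10 (26.2%). From day 2 to day 4, 25 changed (46.6%), from day 6 to day 8, 13 (6.48%), from day 6 to day 10, 23 (20.9%), and from day 4 to day 8, 24 (24.8%). Genes called with the block alone on both days 8 and 10 were rpoB, petN, petD, psbB, psbT, psbH, rps14, rps15, ndhG, ndhK and ndhE. Those called lower on day 2 with the block alone were petG, petN, psbB, psbT, psbN, ndhE, ndhG, ndhH and rpl33. Of these, psbN was dim on 2 day 2 arrays and 1 day 0 array. With dim signals raised to the 40th percentile its fall was 1.17-fold. petN and ndhG were each dim on 1 day 2 array. The labels give the replicate numbers but do not say what a number shares between days.

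The other protein-coding genes of the plastid genome give a comparison. Of 14 tested, 2 were higher and 1 was lower on day 2 (14.3% and 7.14%, beside 35.3% and 26.1% of all tested probe sets). On day 8 and on day 10, 10 were higher (71.4%, beside 36.2% and 36.4%). None was lower on those days, beside 27.3% and 27.6%. rbcL, for the large subunit of Rubisco, had signals of 42.3 and 47.1 at day 0, 43.0 and 61.8 at day 2, 76.7 and 108 at day 4, 98.3 and 118 at day 6, 115 and 114 at day 8, and 154 and 98.7 at day 10. All arrays from day 4 on were above day 0. clpP, for a protease subunit, and matK, for a splicing factor, were the 2 higher on day 2, with log2 changes of 0.51 and 0.62, and accD, for a subunit of acetyl-CoA carboxylase, was the 1 lower, at -0.46. The replicate difference of these 14 genes repeated between days too (r from 0.691 to 0.96), but its median was positive from day 0 to day 8. Of 43 nuclear photosystem and light-harvesting genes listed, 6 had a probe set given to them alone, and 2 were tested. LHCB4.1, for a light-harvesting protein, had mean signals of 15.9 on day 0, 11.1 on day 2 and 92.4 at day 4, with 4 arrays dim. PSBW had mean signals of 12.3 on day 0, 9.46 on day 2 and 23.5 at day 4, with 7 arrays dim. Of 11 listed regulators of greening none was tested.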

How the data were processed

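Total RNA of the suspension cells was read on 12 ATH1 arrays. The deposited intensities are MAS5 signals on a linear scale, per the submitters' processing notes; its version: not given in the sources used here. From them log2 signals were fitted in limma 3.58.1 under R 4.3.3 (lmFit and a trended eBayes), each day having its own mean and all 12 arrays sharing the spread, 2-sided, with no block, and p-values were adjusted by Benjamini-Hochberg over 15103 probe sets. Residual degrees of freedom were 6 and prior degrees 5.19, so the number of arrays limits the precision. The script was tested on simulated data. Members and gene lists were chosen with earlier results of these data known; the mitochondrial list was added after the files were seen. Any of the 55 genes could be named, and those described in full were picked with their values known. Of other lists, genes passing the test over all days were named, at most 4 by size on day 10, plus those going the other way; matK and accD were named after their values were seen. Replicate numbers come from the titles. Over all tested probe sets same-numbered arrays did not deviate together in every pair of days, but over the 55 genes they did. Promoter motifs were not analysed here. Alternatives covered scaling, filter, pseudocount, variance trend, replicate block and leaving out each array.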

Additional observations from a re-analysis of the deposited data

How the results depend on the processing

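Of 133 calls of a gene on a day against day 0, 90 were kept under all 22 alternatives and 43 were lost under at least 1, of which 19 were lost only when 1 array was left out. With the replicate block, 21 genes were lower on day 2, 10 lower on day 4, and 25, 13, 23 and 24 changed from day 2 to 4, 6 to 8, 6 to 10 and 4 to 8. Quantile normalization lost the higher calls of ndhF, psaC and psbD on day 8 and of psaC on day 10. It also lost the lower calls of psaJ on days 6, 8 and 10. Centring arrays on their medians lost the higher calls of ndhD, ndhF, psaC, psaI, psbD, psbM and rps19 on day 8. On day 10 centring lost those of petA, psaC, psaI, psbD, psbM and rps19. It moved the day 10 median over every tested probe set from 0.0771 to -0.157. It gave 10 lower genes on day 10, with 7, 13 and 0 changed between days 2 and 4, 2 and 6, and 6 and 8, and petB on day 8 turned to -0.22 and passed the test. Without the variance trend 5, 12, 0, 1 and 4 genes changed from day 2 to 4, 2 to 6, 6 to 8, 6 to 10 and 4 to 8. With no filter 0 changed from day 6 to 8. With a pseudocount of 8.50, 7 changed from day 6 to 10, and the day 2 shifts against the expression machinery were -0.70 for photosystems and -0.57 for NDH; with signals raised to the 40th percentile of each array the latter was -0.59. With only the 4 arrays compared, 3, 7 and 14 genes changed from day 6 to 8, 6 to 10 and 4 to 8. Leaving out 1 array gave 3 to 7 lower genes on days 8 and 10, and 3 to 14, 7 to 21, 0 to 2, 0 to 10 and 2 to 10 changed from day 2 to 4, 2 to 6, 6 to 8, 6 to 10 and 4 to 8. For NDH against the machinery it gave -0.81 to -0.50 on day 2 and -0.18 to 0.45 on day 10, and -0.0033 to 0.33 on day 8, the lowest without day 8 replicate 1. For the 16 photosystem genes other than psbE, psbF, psbL and psbJ, a choice made after seeing the data, the shift against the machinery was -0.56 on day 2 and 0.0055 on day 10. With the block the day 6 call of psaJ was lost. The cause of the remaining moves was not tested. Averaging probe sets per gene changes nothing here, since each gene has 1, and promoter motifs were not run. Dim signals limit psbN, ndhF, ndhJ and ndhG most.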

Other observations

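The 6 probe sets that the annotation gives to several genes read rps12 (2 probe sets), rpl2, rpl23, ndhB and rps7. The rpl23 probe set had signals of 903 and 720.4 at day 0, 523 and 434 at day 2, and 622 and 494 at day 10. It was lower than day 0 on all 5 later days, with a log2 change of -0.76 on day 2 (limma adjusted p = 0.0028). One rps12 probe set was lower on day 2, with a log2 change of -0.68 (adjusted p = 0.038), and the other was not called (adjusted p = 0.17). The rps7 probe set was higher in replicate 2 on every day, from 286 and 548 at day 0 to 325 and 794 at day 10, while ndhB was lower in replicate 2 on every day, from 52.3 and 25.5 to 108 and 40.6.

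Among 16 mitochondrial genes, 8 were higher and 3 lower on day 2 (50% and 18.8%, beside 35.3% and 26.1% of all tested probe sets). On day 10, 2 were higher and 4 lower (12.5% and 25%, beside 36.4% and 27.6%). The median log2 changes of the 16 genes were 0.39 on day 2 and -0.08 on day 10. Their replicate difference correlated between days with r from 0.134 to 0.883.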
